A study of Mus musculus with 2 samples.

Results

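The Mir30 family of microRNA (miRNA) genes was followed in small RNA libraries of the embryonic mouse heart. Its 6 genes, Mir30a, Mir30b, Mir30c-1, Mir30c-2, Mir30d and Mir30e, were chosen by name and matched through their Ensembl gene IDs, and all 6 were found among the 1973 miRNA genes counted. The study holds 1 group, hearts of healthy B6NCrl embryos of both sexes at embryonic day 15.5, with no treatment or mutation in the labels. Total RNA was made into 2 libraries of inserts under 30 bases, replicate 1 from a pool of 78 embryos and replicate 2 from a pool of 62. Whole hearts hold muscle, endothelium, fibroblasts, smooth muscle and blood, so that a level is an average over all of these cells, and fewer cells of a type cannot be told apart from less RNA per cell. Levels are given as counts per 1000000 counts on miRNA genes (CPM), with the SD over both libraries (n = 2). No condition can be compared, and the comparisons are those among the 6 genes and between the pools.

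A miRNA is cut from a hairpin precursor, and either arm of the hairpin (5p or 3p) can be loaded into Argonaute, where its seed, bases 2 to 8, pairs with target mRNAs and lowers their output. Genes whose mature miRNAs carry the same seed form a family and can act on overlapping targets. The Mir30 family is known as an abundant family of differentiated tissues such as heart muscle and kidney, and in rodent heart muscle it has been reported to lower connective tissue growth factor, a matrix-promoting protein.

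Mature sequences from RefSeq (GRCm38.p6) were found for 4 of the 6 genes, and Mir30b and Mir30d are named here without a sequence. The 5p arms are shown because they define the family. Their seeds are in capitals.

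miR-30e-5p: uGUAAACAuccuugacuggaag
miR-30a-5p: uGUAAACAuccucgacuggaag
miR-30c-5p: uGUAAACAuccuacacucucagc
miR-384-5p: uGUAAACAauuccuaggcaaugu

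All carry the seed GUAAACA. The first 12 bases of miR-30c-5p and miR-30a-5p are identical. Counting from 1 at the 5′ end, miR-30e-5p differs from miR-30a-5p by the single change C13U, so that 21 of 22 bases are the same. Among all mature miRNAs of the table, the only one outside the family with this seed is miR-384-5p, a miRNA studied mainly in the brain. Its gene Mir384, on chromosome X, had 6 counts (1.74 CPM) in replicate 1 and 29 counts (4.97 CPM) in replicate 2.

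The 3p arms divide the family further, and they are shown because reads of either arm are counted to the same gene.

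miR-30e-3p: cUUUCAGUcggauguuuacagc
miR-30a-3p: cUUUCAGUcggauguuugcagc
miR-30c-1-3p: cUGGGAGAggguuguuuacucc
miR-30c-2-3p: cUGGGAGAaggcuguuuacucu

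The 3p arms of Mir30e and Mir30a share the seed UUUCAGU, which no other mature miRNA of the table carries, and miR-30e-3p differs from miR-30a-3p by G18A. Mir30c-1 and Mir30c-2 have another 3p seed, UGGGAGA, which miR-6958-5p also carries. Between their 3p arms there are 3 changes, written G9A, U12C and C22U for miR-30c-1-3p against miR-30c-2-3p. The hairpin of Mir30e, the most counted gene of the family, is printed below with both arms in capitals.

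Mir30e hairpin: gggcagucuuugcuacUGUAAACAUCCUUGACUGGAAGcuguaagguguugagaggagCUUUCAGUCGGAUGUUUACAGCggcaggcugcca

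For Mir30c-1 and Mir30c-2 the counted reads are only a part of what the genes can yield. Their 5p arm is one and the same mature miRNA, and the hairpins are printed below with their longest shared stretch, 28 bases, in capitals.

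Mir30c-1 hairpin: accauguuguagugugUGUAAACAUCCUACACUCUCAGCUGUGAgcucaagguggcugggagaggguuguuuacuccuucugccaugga
Mir30c-2 hairpin: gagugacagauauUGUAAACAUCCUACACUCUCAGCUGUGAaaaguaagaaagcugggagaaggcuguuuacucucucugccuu

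A read that lies within this stretch matches both genes, and reads that matched several places are in no gene count. Such reads were 2329438 (33.0% of all reads) in replicate 1 and 3536897 (30.1%) in replicate 2, or 11.5 times the counts of the whole family in replicate 1 and 12.8 times in replicate 2. How many of them are miR-30c-5p cannot be read from the counts. The levels of Mir30c-1 and Mir30c-2 below therefore leave out the reads that lie wholly within it and understate the mature miRNA to an unknown degree. Mir30e and Mir30a share at most 18 bases in a row, and each of their mature sequences was found in 1 hairpin of the table. Of 1674 different mature sequences in the table, 59 (3.52%) lie in more than 1 hairpin, as miR-30c-5p does.

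The family was counted at a high level, and nearly all of it came from 3 genes. Mir30e, Mir30a and Mir30d together made up 99.4% of the family's 202004 counts in replicate 1, with an exact binomial 95% interval of 99.41% to 99.48%, and 99.4% of its 275856 counts in replicate 2, with one of 99.39% to 99.44%. Mir30b, Mir30c-1 and Mir30c-2 together held 1119 counts in replicate 1 and 1616 in replicate 2. As a share of all counts on miRNA genes the family reached 5.87% in replicate 1 (5.85% to 5.90%) and 4.73% in replicate 2 (4.71% to 4.75%), and the intervals do not overlap. These intervals cover counting error only.

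Mir30e (ENSMUSG00000065409.1) was the leading member and the tenth most abundant of all miRNA genes in both libraries. Its place is chromosome 4 (mm10, positions 120772606 to 120772697, minus strand) in an intron of Nfyc, which encodes a subunit of the CCAAT-binding transcription factor NF-Y. It had 106634 counts (31002 CPM) in replicate 1 and 143161 counts (24543 CPM) in replicate 2, with a mean of 27773 ± 4568 CPM. That was 52.8% of the family in replicate 1 and 51.9% in replicate 2. Its host transcript was not measured here. On the opposite strand, where the annotation places Mir30f over the same bases, replicate 1 had 1 count and replicate 2 had 0.

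Mir30a (ENSMUSG00000065405.2) followed, on chromosome 1 (positions 23272269 to 23272339, plus strand), where it overlaps no other annotated gene. Mir30a had 52182 counts (15171 CPM) in replicate 1 and 71742 counts (12299 CPM) in replicate 2, or 13735 ± 2031 CPM, at rank 19 by mean level. It gave 25.8% of the family's counts in replicate 1 and 26.0% in replicate 2.

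Mir30d (ENSMUSG00000065437.1), which with Mir30b has been studied in human melanoma, was close behind at rank 20. It lies on chromosome 15 (positions 68341208 to 68341289, minus strand), wholly in an exon of the long noncoding RNA gene Gm20732, and shares 9 bases with the exon of Gm37296. It had 42069 counts (12231 CPM) in replicate 1 and 59337 counts (10172 CPM) in replicate 2, or 11202 ± 1456 CPM. Its share of the family was 20.8% in replicate 1 and 21.5% in replicate 2. Its higher value, in replicate 1, lay just under the lower value of Mir30a, in replicate 2.

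The remaining members were counted at a small fraction of these levels. Mir30b (ENSMUSG00000065476.2), on chromosome 15 (positions 68337415 to 68337510, minus strand) with 16 bases in the exon of Gm26621, had 644 counts (187 CPM) in replicate 1 and 849 counts (146 CPM) in replicate 2. Its mean of 166 ± 29.5 CPM placed it at rank 154.

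Mir30c-1 (ENSMUSG00000065490.1) is also intronic in Nfyc (chromosome 4, positions 120769534 to 120769622, minus strand). It had 322 counts (93.6 CPM) in replicate 1 and 490 counts (84.0 CPM) in replicate 2, with a mean of 88.8 ± 6.80 CPM at rank 191. Mir30c-2 (ENSMUSG00000065567.1), wholly in an exon of the long noncoding RNA gene Gm27028 on chromosome 1 (positions 23291701 to 23291784, plus strand), had 153 counts (44.5 CPM) in replicate 1 and 277 counts (47.5 CPM) in replicate 2. Its mean was 46.0 ± 2.12 CPM at rank 224. It was the only member without a higher CPM in replicate 1.

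**Figure D1:**
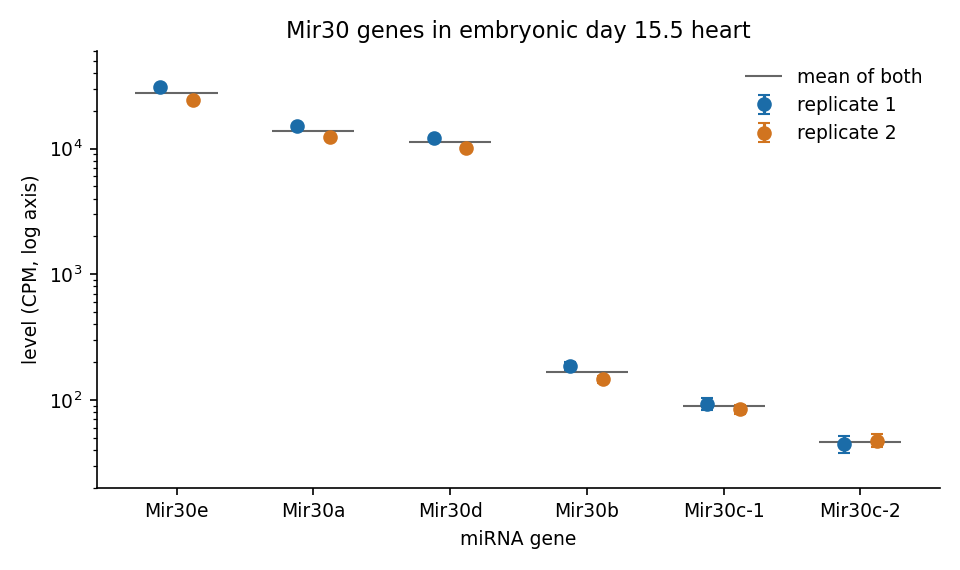
Level of each Mir30 gene in CPM (log axis), one point per library with its exact binomial 95% interval (often smaller than the point) and a line at the mean of both. Mir30e, Mir30a and Mir30d lie between 10172 and 31002 CPM, and Mir30b, Mir30c-1 and Mir30c-2 between 44.5 and 187 CPM.

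The order from Mir30e to Mir30c-2 was the same in both libraries, and all 5 neighbouring steps of it were also kept when counts were divided by hairpin length, which runs from 71 to 96 bases. For each step both CPM values of the upper gene exceeded both of the lower gene. After the scaling described below, this no longer held for Mir30a and Mir30d, whose scaled values overlapped (lowest for Mir30a 11583 CPM, highest for Mir30d 12987 CPM), while the other 4 steps kept it. Mir30e had 2.04 counts for each count of Mir30a in replicate 1, with an exact binomial 95% interval of 2.02 to 2.07, and 2.00 in replicate 2 (1.98 to 2.01). For Mir30a against Mir30d this ratio was 1.24 in replicate 1 (1.22 to 1.26) and 1.21 in replicate 2 (1.20 to 1.22), the smallest step of the order. Among the 3 abundant genes the proportions thus differed little between the pools. The SD over both libraries was 0.02 on the log2 scale for Mir30e to Mir30a and 0.03 for Mir30a to Mir30d. The step from Mir30d to Mir30b was the widest, at 65.3 (60.4 to 70.7) in replicate 1 and 69.9 (65.3 to 74.9) in replicate 2. Mir30b exceeded Mir30c-1 by a ratio of counts of 2.00 in replicate 1 (1.75 to 2.29) and 1.73 in replicate 2 (1.55 to 1.94). Mir30c-1 exceeded Mir30c-2 by 2.10 in replicate 1 (1.73 to 2.57) and 1.77 in replicate 2 (1.52 to 2.06). Different miRNAs are ligated and amplified with different ease, so these ratios of counts are not ratios of molecules in the tissue.

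The 6 genes form 3 genomic pairs on the same strand, and by counts each pair held 1 abundant and 1 scarce member. In the pairs with a Mir30c gene, the scarce count leaves out reads that match both Mir30c genes. Mir30e and Mir30c-1 share the host gene Nfyc, with 2983 bases between their hairpins. Mir30d and Mir30b are 3697 bases apart, and Mir30a and Mir30c-2 are 19361 bases apart. In the direction of transcription the abundant member comes first in all 3 pairs. Summed, the pairs on chromosomes 4, 1 and 15 had 27861 ± 4575, 13781 ± 2029 and 11368 ± 1485 CPM.

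**Figure D2:**
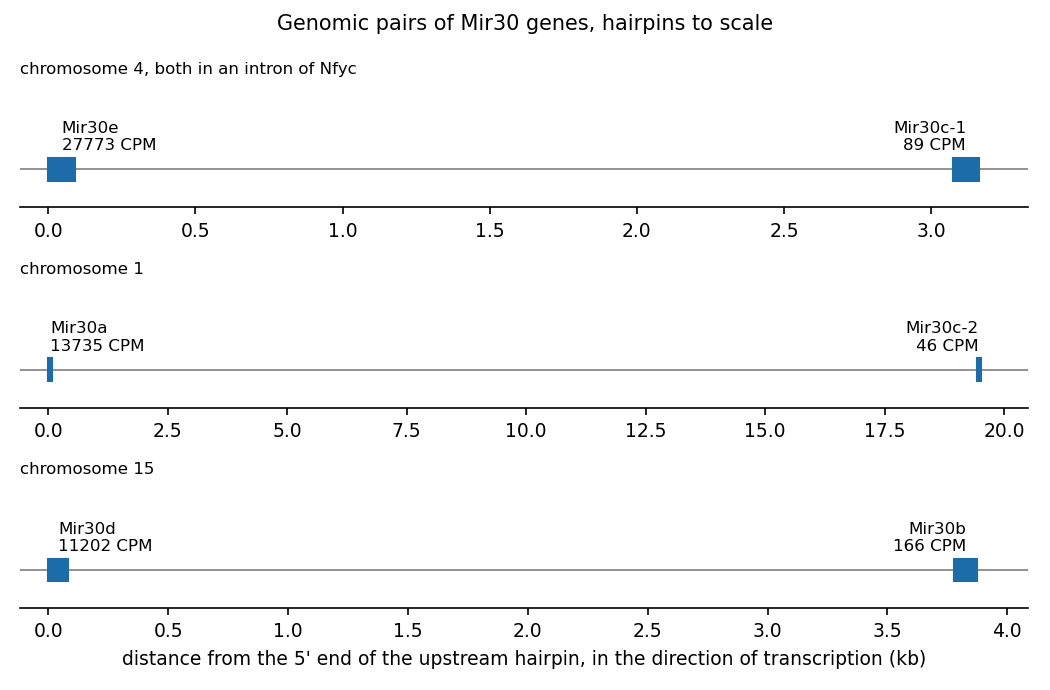
The 3 genomic pairs of Mir30 genes, drawn to scale along the direction of transcription (kb from the upstream hairpin), with the mean CPM of each gene. Each pair has its more counted gene upstream, and the chromosome 1 pair is spaced widest, at 19361 bases. Counts of the Mir30c genes leave out reads that match both of them.

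Mir30e had 331 counts for each count of Mir30c-1 in replicate 1, with an exact binomial 95% interval of 297 to 371, and 292 in replicate 2 (267 to 320), a log2 ratio of 8.28 ± 0.13. Between the libraries this ratio did not differ beyond counting noise (two-sided Fisher's exact test, adjusted p = 0.123 over the 3 pairs). Mir30a had 341 counts for each of Mir30c-2 in replicate 1 (291 to 402) and 259 in replicate 2 (230 to 292), a log2 ratio of 8.22 ± 0.28, and here the libraries differed (Fisher's exact test, adjusted p = 0.0184). Mir30d had 65.3 counts for each of Mir30b in replicate 1 and 69.9 in replicate 2, a log2 ratio of 6.08 ± 0.07 (Fisher's exact test, adjusted p = 0.204). In the pairs with a Mir30c gene, the shared miR-30c-5p reads are missing from the lower count. For Mir30d and Mir30b no such check on sequence was made.

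Between the pools, the family's level in CPM stood higher in replicate 1, the library with fewer counts. Library sizes were scaled with the trimmed mean of M values (TMM) method, and each gene was compared between them by a two-sided exact binomial test against counting noise alone, adjusted by Benjamini-Hochberg over all 413 genes with at least 10 counts summed. Such a test compares these libraries and no condition. All 6 members entered it, and 5 were called higher in replicate 1, where 21.8% of all tested genes were called. None of the 6 was called higher in replicate 2, where 24.7% of all tested genes were. The median log2 ratio of replicate 1 to replicate 2 was 0.46 over the 6 genes, beside -0.04 over all tested genes.

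Mir30b had the highest log2 ratio of the 6, at 0.54 (95% interval 0.39 to 0.69, exact binomial test, adjusted p = 9.79e-12). Mir30e stood at 0.51 (0.50 to 0.52), Mir30a at 0.48 (0.46 to 0.49) and Mir30d at 0.44 (0.42 to 0.46), each with an adjusted p below the smallest number the software can write. These 3 intervals do not overlap, so that even among the abundant members the difference was not of one size. Mir30c-1 followed at 0.33 (0.12 to 0.54, exact binomial test, adjusted p = 0.00465). Mir30c-2 was not called, at 0.08 (-0.22 to 0.37, exact binomial test, adjusted p = 0.726).

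These differences depend on the yardstick. Scaled by total counts, which shifts the median of all tested genes by -0.17, Mir30c-1 stood at 0.16 (exact binomial test, adjusted p = 0.223) and Mir30c-2 at -0.094, so that 4 of 6 members were called higher in replicate 1, where this scaling called 11.6% of all tested genes (37.5% were called higher in replicate 2). Set instead against the usual spread between the libraries, in edgeR's exact test with a common dispersion estimated over all genes from both libraries as 1 group (a coefficient of variation of 29.9%), 0 of the 6 members were called and 0 had an unadjusted p under 0.05. Their unadjusted p ran from 0.392 to 0.903 in that exact test, which called 7 of 413 genes (1.69%), all of them higher in replicate 2. The difference in the family thus exceeds counting noise but lies within the spread that miRNA genes showed between these pools. That spread was estimated from these same libraries and includes the differences under test, so the test does not show that the pools were alike.

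**Figure D3:**
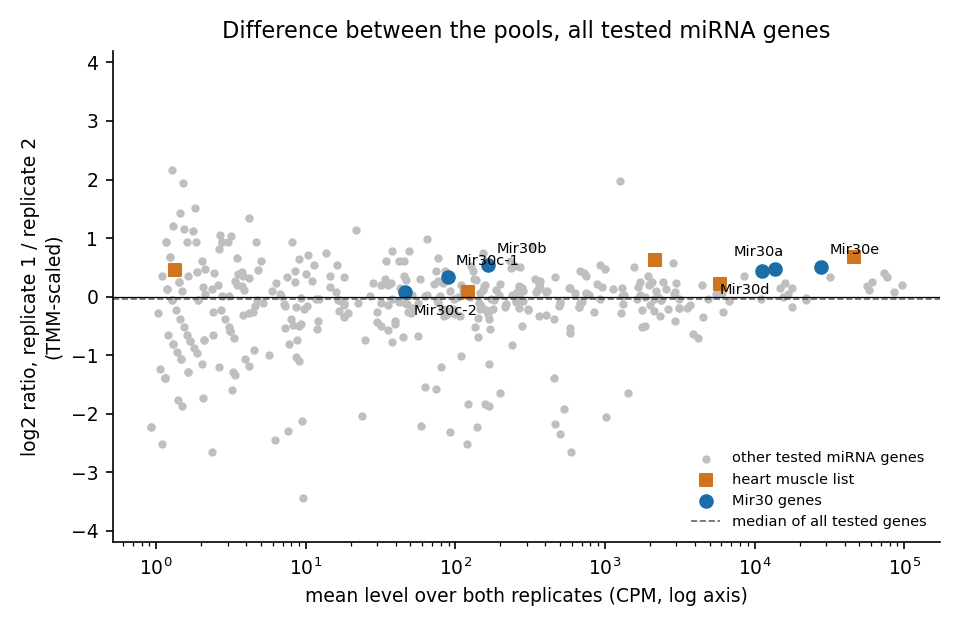
Log2 ratio of replicate 1 to replicate 2 after TMM scaling against mean level (CPM, log axis) for the 413 tested miRNA genes, with the Mir30 genes as blue circles and the tested genes of the heart muscle list as orange squares. The Mir30 genes lie between 0.08 and 0.54, above the median of all tested genes at -0.04.

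Most of the most abundant miRNA genes had higher scaled levels in replicate 1 under TMM, while by total counts they were nearly evenly divided. Of the 20 genes at or above the mean level of Mir30d, a set that holds Mir30e, Mir30a and Mir30d themselves, 16 were called higher in replicate 1 and 3 higher in replicate 2, with a median log2 ratio of 0.19, beside 21.8% and 24.7% of all tested genes. By total counts 10 of them were called higher in replicate 1 and 9 higher in replicate 2, beside 11.6% and 37.5% of all tested genes. Their median by total counts was 0.015, beside -0.21 over all tested genes. The part of abundance in the family's difference was not tested.

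Lists of cell type genes were compared between the pools by the same binomial test, against counting noise alone. Of all tested genes it called 21.8% higher in replicate 1 and 24.7% higher in replicate 2 (11.6% and 37.5% by total counts). EdgeR's exact test with the common dispersion called 1.69% of all tested genes. In that test 1 of 7 epithelium genes was called (6 had an unadjusted p under 0.05) and 0 genes of the 6 other cell type lists (1 erythroid gene had an unadjusted p under 0.05). The heart muscle list, whose miRNAs Mir208b, Mir208a and Mir499 sit in myosin genes, checks the tissue label, and its 7 counted genes had a sum of 62461 CPM in replicate 1, against 45595 CPM in replicate 2. Of its 5 tested genes 3 were called higher in replicate 1 and 0 higher in replicate 2, with a median log2 ratio of 0.45. This median is the value of Mir133a-1, which had 5 counts in replicate 1 and 7 in replicate 2. The log2 ratio was 0.68 for Mir208b, 0.62 for Mir499, 0.21 for Mir208a and 0.07 for Mir490. The leading gene of the list, Mir208b, stood at 53878 CPM in replicate 1 against 37837 CPM in replicate 2. The heart muscle genes Mir1a-1, Mir133a-1 and Mir133a-2 had at most 7 counts in either library, and as genes with near-identical copies their counts are uncertain. All 7 genes of the epithelium list, led by Mir429, Mir200c and Mir205, were called higher in replicate 2, with a sum of 1821 CPM in replicate 1, against 6297 CPM in replicate 2. The erythroid genes Mir451a and Mir144 came to 2376 CPM in replicate 1, against 986 CPM in replicate 2, a difference carried by Mir451a (1975 CPM in replicate 1, against 564 CPM in replicate 2). Mir144 had 401 CPM in replicate 1, against 422 CPM in replicate 2, and was not called. The erythroid list names Mir486a and Mir486b, which matched no counted symbol. The counted symbol Mir486 is not in the erythroid sums and was looked up after its values were seen. Mir486 had 80.8 CPM in replicate 1, against 110 CPM in replicate 2, and was called higher in replicate 2 (exact binomial test, adjusted p = 0.0239). The 3 counted leukocyte genes, Mir223, Mir155 and Mir150, came to 480 CPM in replicate 1, against 702 CPM in replicate 2. The smooth muscle list (Mir143 and Mir145a) had 83564 CPM in replicate 1, against 89291 CPM in replicate 2. For the endothelium list (Mir126a, Mir221 and Mir222) these sums were 79312 CPM in replicate 1 and 67923 CPM in replicate 2. The fibroblast list, led by Mir21a, Mir140 and Mir214, had 22218 CPM in replicate 1, against 24982 CPM in replicate 2. Sums in CPM and medians of TMM-scaled log2 ratios differ in sign for these 3 lists and for the let-7 family described below: the medians were 0.27 for smooth muscle (both genes called higher in replicate 1, but 1 in each direction by total counts), -0.34 for endothelium (1 gene called higher in replicate 1 and 2 in replicate 2) and 0.05 for fibroblast (3 and 2 of 9, and 2 and 3 by total counts). The part of cell composition in the family's difference was not tested.

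**Figure D4:**
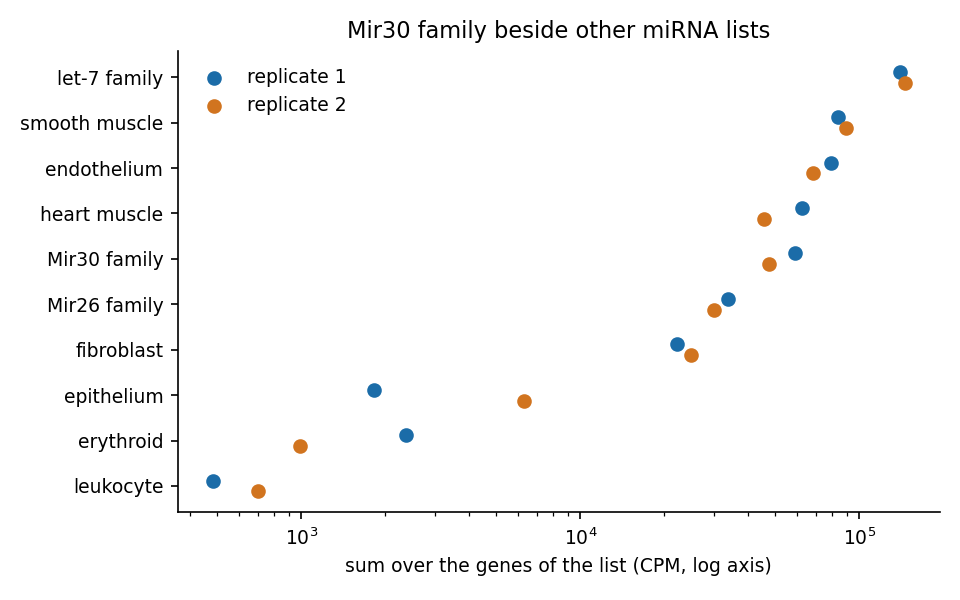
Summed level (CPM, log axis) of the Mir30 family and of 9 other lists of miRNA genes in replicate 1 (blue) and replicate 2 (orange). The Mir30 family, with 58730 CPM for replicate 1, against 47291 CPM for replicate 2, lies next to the heart muscle list in level. Both have the higher sum in replicate 1, as do the endothelium, erythroid and Mir26 lists. The remaining lists have the higher sum in replicate 2. All sums leave out reads that matched several places, to an unknown degree.

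Ratios within a library need no scaling. The family had 0.940 counts for each count of the heart muscle list in replicate 1, with an exact binomial 95% interval of 0.935 to 0.946, and 1.04 in replicate 2 (1.03 to 1.04). Against the endothelium list the ratio was 0.740 in replicate 1 and 0.696 in replicate 2. Against the smooth muscle list it was 0.703 in replicate 1 and 0.530 in replicate 2, and against the fibroblast list 2.64 in replicate 1 and 1.89 in replicate 2. The family's ratio to the heart muscle list and to the endothelium list thus changed by a smaller factor between the pools than its ratio to the smooth muscle and fibroblast lists. Whether these changes differ from each other was not tested. The heart muscle sum and the ratio to it leave out reads that matched several places, to an unknown degree. That sum is without Mir1a-2, and Mir1a-1, Mir133a-1 and Mir133a-2 had at most 7 counts in either library. Most of the heart muscle, endothelium and smooth muscle sums came from 1 gene each. In replicate 1 these were Mir208b (53878 of 62461 CPM), Mir126a (79217 of 79312 CPM) and Mir143 (82454 of 83564 CPM). In CPM, Mir499 was higher in replicate 1 like Mir208b, Mir208a changed little, and Mir490 was lower. Unlike their leading genes, Mir221 and Mir222 were lower in replicate 1 and Mir145a was higher. The ratio to the Mir26 family was 1.74 in replicate 1 and 1.57 in replicate 2.

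Other miRNA families of differentiated tissue gave a further measure. The let-7 family, whose members build up as cells differentiate, came to 140159 CPM in replicate 1, against 145852 CPM in replicate 2, and the Mir30 family had 0.419 counts for each of its counts in replicate 1 and 0.324 in replicate 2. In the let-7 family 5 of 10 tested genes were called higher in replicate 1 and 4 higher in replicate 2, beside 21.8% and 24.7% of all tested genes. The median log2 ratio was 0.01. By total counts the median turned to -0.16, with 0 called higher in replicate 1 and 8 higher in replicate 2, beside 11.6% and 37.5% of all tested genes. The let-7 sum covers 10 of the 12 genes of its list, without Mirlet7e and Mirlet7f-1. Like the counts of the Mir30c genes, it leaves out reads that matched several places, to an unknown degree. The Mir26 family, hosted in introns of the Ctdsp phosphatase genes, came to 33742 CPM in replicate 1, against 30041 CPM in replicate 2, nearly all of it Mir26b. The Mir30 family had 1.74 counts for each count of the Mir26 family in replicate 1 and 1.57 in replicate 2. Mir26a-1 and Mir26a-2, which encode the same miR-26a-5p, had 6.80 ± 0.569 and 28.0 ± 0.752 CPM beside 31857 ± 2617 CPM for Mir26b. Reads that match both Mir26a genes are in no gene count. The Mir26 sum, the part of Mir26b in it and the ratios to it therefore leave out miR-26a-5p reads to an unknown degree.

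By the distance of log2(CPM + 0.5) over both libraries, the miRNA gene nearest in level to Mir30e was Mir26b (distance 0.31, rank 9). For Mir30a it was Mir17 (0.29, rank 18), of the proliferation-linked Mir17-92 cluster, and for Mir30d it was Mir652 (0.34, rank 21). For Mir30b the nearest gene was Mir190a (0.25, rank 160), for Mir30c-1 it was Gm23935 (0.11, rank 194) and for Mir30c-2 it was Mir701 (0.14, rank 223). With 2 libraries, nearness in level says little about likeness of pattern.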

How the data were processed

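Small RNA of 2 libraries of 1 group was analysed. The deposited count files hold raw read counts, all of them whole numbers, per miRNA gene in 3 columns (both strands together, the gene's own strand, the other strand). Per the deposited text files, alignment was to mm10 with the GENCODE M4 annotation. Aligner, trimming and counter: not given in the sources used here. Counts on the strand of the gene were used. Lines naming no gene stayed out of totals, which were 3439539 counts of 7056606 reads in replicate 1 and 5833156 of 11735546 in replicate 2. The limit that a count of 0 allows, 3 counts, is 0.872 CPM in replicate 1 and 0.514 CPM in replicate 2. Reads matching several places were 33.0% in replicate 1, against 30.1% in replicate 2. Of all reads, 13.1% in replicate 1 (15.1% in replicate 2) did not map, and 5.11% (5.07% in replicate 2) lay on no miRNA gene's strand. Counts do not tell the arms of a hairpin apart.

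Symbols and positions came from GENCODE M21, by ID without version, on the same assembly (1894 of 1973 IDs), and sequences came from RefSeq on GRCm38.p6. Levels are CPM with the SD over both libraries. Pools were compared by exact conditional binomial tests at library sizes scaled by TMM (edgeR 4.0.16, R 4.3.3; factors 0.942 and 1.06), with Benjamini-Hochberg adjustment over 413 genes and a threshold of 0.05. An edgeR quasi-likelihood test of 1 library against 1 has no residual degrees of freedom. Alternatives were total counts, DESeq2 1.42.0 size factors, no filter, either-strand counts and edgeR's exact test with a common dispersion. Ratios carry exact binomial intervals. Other steps used Python 3.11.15, numpy 2.4.6, pandas 2.3.3, scipy 1.17.1 and matplotlib 3.10.9. The tests were checked on counts with known differences simulated around the observed means and depths. The simulated counts held counting noise alone, so the check does not cover the spread seen between the pools. The members and lists were chosen with earlier results of these data known. All 6 members were named, with at most 3 leading genes per list and the gene nearest in level to each member. Of the list symbols, Mir1a-2, Mir142, Mir486a, Mir486b, Mirlet7e and Mirlet7f-1 were not used here.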

Additional observations from a re-analysis of the deposited data

How the results depend on the processing

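Of the results on the family, the count of members called higher in replicate 1 was 5 in the analysis as reported, 4 by total counts (48 of all 413 tested genes, beside 90 as reported), 5 with DESeq2 size factors, without the filter on low counts and with counts on either strand, and 0 with edgeR's common dispersion. Among all tested genes, 102 of 413 were called higher in replicate 1 with DESeq2 size factors and 82 of 687 without the filter. With counts on either strand it was 94 of 423, and with edgeR's common dispersion 0 of 413. By total counts Mir30c-2 turned to -0.094 on the log2 scale. The family sum was 53011 CPM and 26066 per 1000000 of all reads, of which 48.7% and 49.7% are counted to a gene, and it was 47291 to 58730 CPM with 1 library left out. The log2 ratios of the pairs ranged from 8.19 to 8.37 for Mir30e to Mir30c-1, 8.02 to 8.41 for Mir30a to Mir30c-2 and 6.03 to 6.13 for Mir30d to Mir30b with 1 library left out. All 5 steps of the order held in each library alone and per hairpin length. By total counts the median log2 ratios were 0.28 for the Mir30 family, 0.28 for heart muscle, 0.10 for smooth muscle, -0.51 for endothelium, 0.87 for erythroid, -0.49 for leukocyte, -1.82 for epithelium and 0.055 for the Mir26 family, and they reversed for fibroblast (-0.12) and let-7 (-0.16). The heart muscle median is again the value of Mir133a-1, which had 5 counts in replicate 1 and 7 in replicate 2. With 2 libraries made from separate pools, the SD rests on 2 values. Relative to the level, counting intervals are widest for Mir30c-2, Mir30c-1 and Mir30b, the members with the fewest counts. No paired analysis was possible because there is 1 group.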
